A study of Mus musculus with 6 samples.

Results

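Vascular endothelial growth factor (VEGF) ligands and their receptors were followed in mouse embryonic stem cell derivatives, in 9 genes chosen by name: the receptor genes Kdr, Flt1 and Flt4, the co-receptor genes Nrp1 and Nrp2, and the ligand genes Vegfa, Vegfb, Vegfc and Pgf. A gene was read from an array feature listed for that gene alone, the brightest by its mean over the 6 arrays where there were several. This gave 8 measured genes, 4 receptor or co-receptor and 4 ligand genes, among the 30700 genes of the array. Nrp1 had no feature of its own, because the feature listed for it is also listed for the microRNA gene Mir1903.

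The cells came from a line that the labels call iRunx and were grown as embryoid bodies, aggregates in which stem cells form the germ layers. On day 4 the bodies were dissociated, and cells that carry Flk1, the protein encoded by Kdr, and lack PDGFRα were sorted. The control group had 3 arrays of iRunx cells, and the HOXB4 group had 3 arrays of iRunx cells with HOXB4, a homeodomain transcription factor, expressed from a retrovirus together with the red fluorescent marker tdTomato. The labels used here leave unsaid whether the controls carried an empty vector, whether a Runx gene was induced, and how many clones the line represents. The 3 replicates were separate experiments per the series text. The question addressed is which VEGF genes differ between sorted cells with and without HOXB4.

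In mice, VEGF-A acts on endothelial and blood precursors mainly through Flk1, a tyrosine kinase receptor without which neither lineage forms properly. Flt1 binds VEGF-A tightly but signals weakly, and in its soluble form it holds the ligand away from Flk1. It is also the receptor for placental growth factor, encoded by Pgf, and for VEGF-B. Flt4 is the receptor for VEGF-C and serves lymphatic vessels later in development. Neuropilins bind both VEGF proteins and class 3 semaphorins.

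The bases just before the start sites of Flt1, Kdr and Pgf are shown because Flt1 and Kdr, which bind the same ligand, spread differently over the arrays, and because Pgf was the only measured member whose groups did not overlap. The sequences are RefSeq windows of 250 bases before the start in build GRCm38.p6, all on the minus strand and written 5′ to 3′ along the gene. Flt1 lies at chr5:147726012-147726261, Kdr at chr5:75978456-75978705, and the first of 2 windows listed for Pgf at chr12:85177314-85177563. Capitals mark GGAAG, a core recognised by many ETS transcription factors, on either strand, and the palindrome TGACGTCA, the cyclic AMP response element.
Flt1: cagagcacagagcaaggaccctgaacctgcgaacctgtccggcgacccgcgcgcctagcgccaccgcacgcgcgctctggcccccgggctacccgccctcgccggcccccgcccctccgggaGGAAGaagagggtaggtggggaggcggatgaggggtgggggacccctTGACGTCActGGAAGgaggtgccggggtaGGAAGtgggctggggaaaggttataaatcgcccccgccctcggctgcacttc
Kdr: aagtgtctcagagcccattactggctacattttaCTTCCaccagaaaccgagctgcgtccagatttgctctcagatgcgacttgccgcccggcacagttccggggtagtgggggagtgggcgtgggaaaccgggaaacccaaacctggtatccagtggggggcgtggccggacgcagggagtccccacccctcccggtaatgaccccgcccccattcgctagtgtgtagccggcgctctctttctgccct
Pgf: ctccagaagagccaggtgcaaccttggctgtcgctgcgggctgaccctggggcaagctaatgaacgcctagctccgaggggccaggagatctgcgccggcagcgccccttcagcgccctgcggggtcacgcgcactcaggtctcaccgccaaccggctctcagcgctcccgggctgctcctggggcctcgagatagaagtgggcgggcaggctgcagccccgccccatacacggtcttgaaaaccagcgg
The Flt1 window held 3 GGAAG matches and 1 TGACGTCA, with none of these matches overlapping. The Kdr window held 1 GGAAG match, read on the opposite strand, and the Pgf window held 0 matches of either motif. A GGAAG match was present in 64.1% of the 32851 windows of this length, so it is common, while TGACGTCA was present in 1.55%. The core ACGTG, bound by hypoxia inducible factors, was found in 16.6% of all windows, and among the members only in the second of the 2 windows listed for Vegfa. TAAT, a core of homeodomain sites, was found in 54.9% of all windows, with 2 matches in the Kdr window, 0 in the Flt1 window and 1 in the Pgf window. These matches describe letters and are not binding sites measured in these cells.

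The arrays gave log2 values, on which a difference of 1 is a doubling. The median gene stood at 5.10 to 5.22 and the background features at medians of 3.06 to 3.15, and each of the 48 values of the 8 members was at least 5.21. Kdr lay between 13.68 and 14.33, above the 95th percentile of genes in every array (13.20 to 13.37). The feature listed for both Pdgfra and Mir7025 lay between 5.95 and 7.15 and was highest in HOXB4 2. HOXB4 2 stood apart from its group. Over all genes it was closest to control 3, with an SD of the log2 differences of 0.23, the smallest of the 15 pairs of arrays. Against HOXB4 1 and HOXB4 3 that SD was 0.44 and 0.39. Control 2 also lay slightly closer to HOXB4 3 and HOXB4 1 (0.33 and 0.34) than to controls 1 and 3 (0.35 and 0.35). The difference of each member and the median of each pathway list are given with and without HOXB4 2. That array was singled out from these same values. Leaving out the HOXB4 array nearest a control tends to widen differences, so results without it are a description and not a separate test.

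No member changed by the test. In limma's moderated test, Benjamini-Hochberg adjusted over 30700 genes, 0 genes passed an adjusted p of 0.05 (0.0% of all genes), and 0 of the 8 members did. Before adjustment, a p under 0.05 was reached by 2513 genes (8.19%), among them 1 of the 8 members, Pgf. Groups without overlap were found for 13.5% of all genes, and again for 1 of the 8 members. By the sign of the difference, 5 members lay lower and 3 higher with HOXB4, with a median difference of -0.06 on the log2 scale. That median moved to -0.035 without HOXB4 2, to -0.24 without HOXB4 1 and to 0.049 without HOXB4 3. Over all genes 60.0% lay lower and 40.0% higher, and the median difference was -0.04. Both shares lay near those of the array as a whole. Without HOXB4 2, 46 genes passed the adjusted threshold (0.15%), 0 of them members, and an unadjusted p of 0.05 was reached by 3 of the 8 members, Flt1, Pgf and Vegfc, against 13.9% of all genes. A sorted population is a bulk sample, so fewer cells of a type and less RNA per cell cannot be told apart in any value given here.

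**Figure D1:**
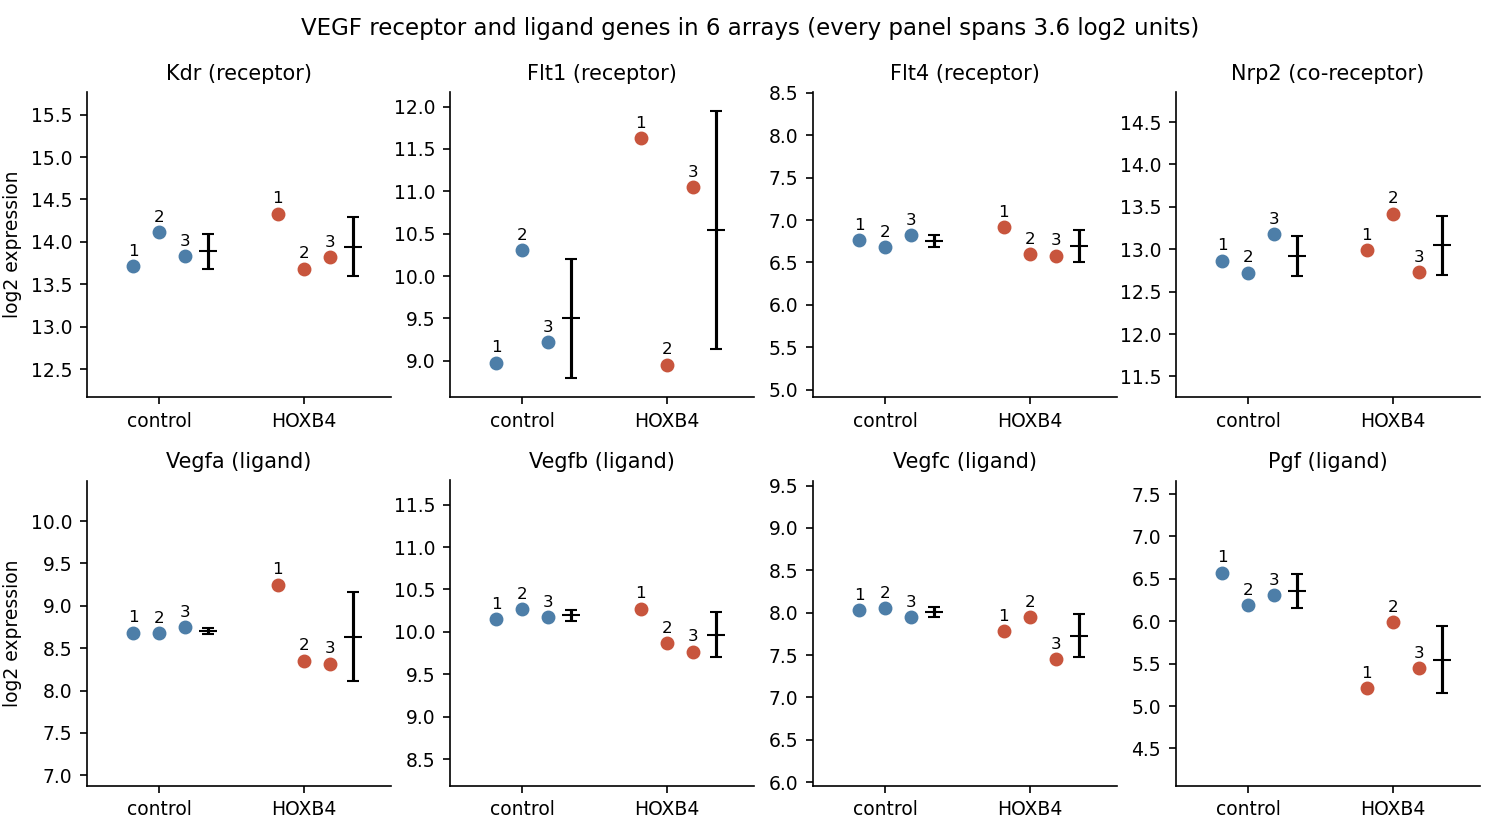
Log2 expression of the 8 measured genes, 1 point per array with its replicate number, controls in blue and HOXB4 in red. The bar beside each group is its mean ± SD (n = 3). Pgf is the only gene whose groups separate, and Flt1 has the widest range, with HOXB4 2 at 8.95 and HOXB4 1 at 11.63.

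For Kdr, which encodes the receptor used for the sort, controls 1, 2 and 3 gave 13.72, 14.12 and 13.83, and HOXB4 1, 2 and 3 gave 14.33, 13.68 and 13.82; values below follow the same order. The HOXB4 group held both the highest and the lowest value, and its other value lay within the controls. The difference was 0.06 (SE 0.19; 95% interval -0.40 to 0.52; adjusted p = 0.942), so a change of the Kdr transcript by more than 0.52 in either direction lies outside the interval. The gate selects for Flk1 protein in both groups, and its part in this narrow spread was not tested. The direction was not stable, at -0.14 without HOXB4 1, -0.03 without control 1 and 0.19 without HOXB4 2.

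Flt1, the tight binding receptor that also serves placental growth factor, spread over 2.67 log2 units, the widest range of the 8 members. It stood at 8.98, 10.30 and 9.22 in the controls and at 11.63, 8.95 and 11.05 with HOXB4. HOXB4 1 and 3 lay above every control, whereas HOXB4 2 lay below every control, so the groups overlapped fully. The group means were 9.50 ± 0.70 and 10.54 ± 1.41 (SD, n = 3 each). The difference of 1.04 (SE 0.70; 95% interval -0.63 to 2.71), which is 2.06-fold, was not past the threshold (adjusted p = 0.688). It was higher in 2 of 3 HOXB4 arrays. Without HOXB4 2 the difference was 1.84 (adjusted p = 0.162), and without HOXB4 1 it was 0.50 (adjusted p = 0.956).

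Endothelial markers moved with Flt1 across the arrays. The mean log2 level of 12 measured endothelial markers was 7.28, 8.60 and 7.17 in the controls and 9.46, 6.97 and 8.36 with HOXB4, so that it ranged from 7.17 to 8.60 in one group and from 6.97 to 9.46 in the other. By sign, 12 of the 12 lay higher with HOXB4, against 40.0% of all genes. Their median difference was 0.48, or 1.14 without HOXB4 2. Of the 12, 0 separated without overlap and 0 passed the adjusted threshold. In all 12 of these markers control 2 was the highest control and HOXB4 2 the lowest HOXB4 array, as they were for Flt1. The share of all genes with this order was not counted. Control 2 was the highest control in 14 of the 33 measured VEGF signalling genes and in 1 of the 9 cardiac markers. HOXB4 2 was the lowest HOXB4 array in 19 of those 33 genes and in 1 of those 9 markers. Only Robo4 among the endothelial markers lay below the median gene in all 6 arrays. The brightest of the list, Cdh5, which encodes VE-cadherin, stood at 12.31, 14.05 and 11.83 in controls and at 15.11, 11.29 and 12.91 with HOXB4. Its difference ranged from -0.63 to 1.28 as each array was left out. The part of the endothelial content of a sample in the Flt1 values was not tested. Kdr shared the high value in HOXB4 1 and the low value in HOXB4 2, over 0.65 log2 units against 2.67 for Flt1.

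**Figure D2:**
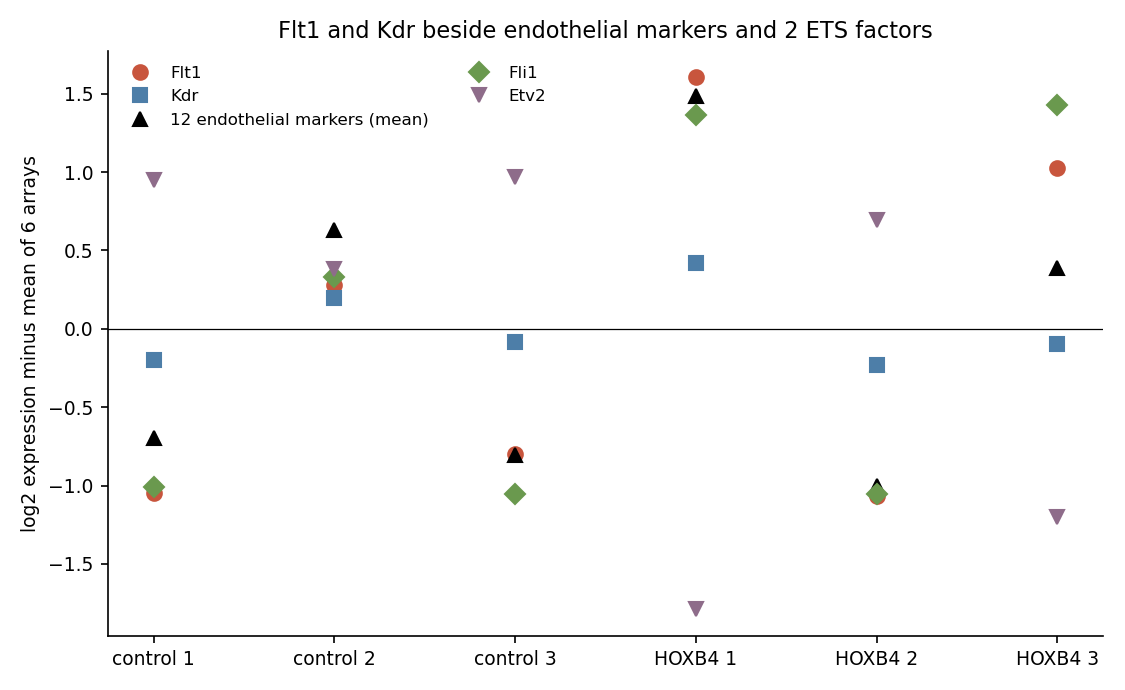
Log2 expression minus the mean of the 6 arrays for Flt1, Kdr, the ETS factor genes Fli1 and Etv2, and the mean of 12 endothelial markers, 1 point per array. Flt1, Fli1 and the markers are high in HOXB4 1 and 3 and in control 2 and low in HOXB4 2, while Etv2 is lowest in HOXB4 1 (9.58) and Kdr spans 0.65 log2 units.

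Flt4, the VEGF-C receptor, stood at 6.77, 6.68 and 6.82 in controls and at 6.91, 6.60 and 6.58 with HOXB4. The whole range was 0.34, and HOXB4 held both the highest and the 2 lowest values. The difference was -0.06 (SE 0.12; 95% interval -0.34 to 0.22; adjusted p = 0.897), and it was -0.0084 without HOXB4 2 and 0.0021 without HOXB4 3.

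Nrp2, the neuropilin that partners mainly with Flt4 and with semaphorins, stood at 12.87, 12.72 and 13.17 in controls and at 12.99, 13.42 and 12.73 with HOXB4. It was the only member with its highest value in HOXB4 2, and its lowest, in control 2, lay next to HOXB4 3. The difference was 0.12 (SE 0.20; 95% interval -0.35 to 0.60; adjusted p = 0.862), and without HOXB4 2 it was -0.062. A second feature listed for Nrp2 alone was dim, at 4.91 to 5.22, and was not used. The feature shared by Nrp1 and Mir1903, which does not measure Nrp1 alone and is not counted among the members, stood at 10.90, 12.07 and 11.39 in controls and at 12.08, 11.12 and 11.39 with HOXB4. Its highest values, in control 2 and HOXB4 1, fell in arrays where Kdr was also highest.

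Among the ligands, Pgf showed the only separation of the groups. Placental growth factor binds Flt1 and not Flk1. Pgf stood at 6.57, 6.19 and 6.31 in controls and at 5.21, 5.99 and 5.45 with HOXB4, so that the lowest control lay 0.20 above the highest HOXB4 array, HOXB4 2. The means were 6.36 ± 0.20 and 5.55 ± 0.40 (SD, n = 3 each). The difference of -0.81 (SE 0.21; 95% interval -1.31 to -0.30), which is 1.75-fold, had an unadjusted p of 0.0070 in limma's test but was not past the threshold over all genes (adjusted p = 0.605). Such a lower separation was seen in 10.2% of all genes, and an unadjusted p of 0.05 with a lower value in 5.95%, so it is not rare on this array. The exact permutation test, two-sided, gave p = 0.1, the smallest that 3 against 3 arrays allow. The difference was below 0 whichever array was left out, from -0.64 without HOXB4 1 to -1.03 without HOXB4 2 (adjusted p = 0.0956).

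The mean level of the cardiac markers, though not each marker, had the same order over the arrays as Pgf. Over 9 measured markers it was 7.66, 7.18 and 7.32 in controls and 6.18, 7.12 and 6.21 with HOXB4, ranging from 7.18 to 7.66 and from 6.18 to 7.12 in the 2 groups. Of these markers, 8 lay lower with HOXB4, and Nkx2-5 and Tbx5 lay below the median gene in every array. Hand1, the brightest, stood at 13.79, 12.82 and 13.46 in controls and at 8.98, 12.83 and 8.61 with HOXB4, so that HOXB4 2 lay level with control 2 and HOXB4 3 was lowest. With all 6 arrays 0 of these markers passed the adjusted threshold. Without HOXB4 2, where 0.15% of all genes passed, 3 of the 9 passed it as lower, Hand1 at -4.56, Tbx20 at -2.44 and, named after its values were seen, Isl1. That array was left out because of its values, so such calls are a description. The mean of 7 smooth muscle and pericyte markers ranged from 8.08 to 8.79 in controls and from 7.23 to 8.71 with HOXB4, with HOXB4 2 again near the controls and Myh11 below the median gene throughout. With all arrays, 6 of these 7 lay lower with HOXB4 and 1 higher. The 1 higher was Tagln, the brightest of the list, at 0.13 (SE 0.61), or -0.46 without HOXB4 2. Without HOXB4 2, 2 of these 7 passed the adjusted threshold, Rgs5 at -4.34 and, named after its values were seen, Pdgfrb. The part of these other cell types in the Pgf values was not tested.

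Vegfa, the main ligand of Flk1 and Flt1, was nearly constant in the controls, at 8.68, 8.68 and 8.75, and scattered with HOXB4, at 9.25, 8.35 and 8.32. HOXB4 1 lay above and HOXB4 2 and 3 below every control. The difference was -0.07 (SE 0.25; 95% interval -0.65 to 0.52; adjusted p = 0.949). Its sign turned to 0.08 without HOXB4 2 and 0.10 without HOXB4 3. Because the direction depended on single arrays, no direction is given for Vegfa.

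Vegfb, a ligand of Flt1, stood at 10.15, 10.27 and 10.18 in controls and at 10.27, 9.86 and 9.77 with HOXB4. HOXB4 2 and 3 lay below every control and HOXB4 1 level with control 2. The difference was -0.23 (SE 0.14; 95% interval -0.57 to 0.11; adjusted p = 0.674), and without HOXB4 2 it was -0.18.

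Vegfc, the ligand of Flt4, stood at 8.03, 8.05 and 7.95 in controls and at 7.78, 7.95 and 7.45 with HOXB4. The groups met only where HOXB4 2 reached the level of control 3. The difference was -0.28 (SE 0.14; 95% interval -0.61 to 0.05; adjusted p = 0.624), or 1.22-fold, and was -0.39 without HOXB4 2 (adjusted p = 0.280). Vegfc was also lower whichever array was left out, between -0.39 and -0.15, and Vegfb between -0.38 and -0.13.

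**Figure D3:**
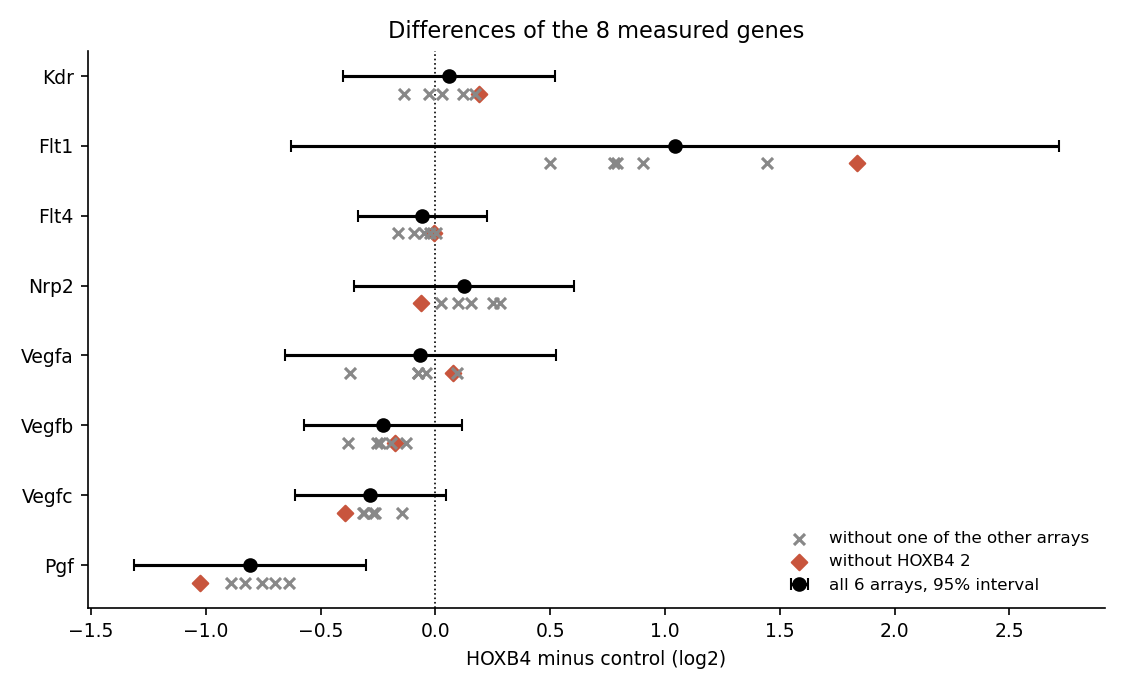
HOXB4 minus control on the log2 scale for the 8 measured genes, with limma's 95% interval from all 6 arrays (black) and the difference after leaving out each array in turn (crosses, and a red diamond without HOXB4 2). The interval of Pgf, -1.31 to -0.30, is the only one that does not reach 0, before any adjustment over genes, and that of Flt1 is the widest.

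The members varied more among HOXB4 arrays than among controls. The SD was larger with HOXB4 for 8 of the 8 members, against 47.7% of all genes, and the median ratio of the SDs was 2.32 for the members and 0.953 for all genes. Vegfa had the largest ratio, 13.5, a value reached by 0.41% of genes. With 3 arrays a group, an SD is itself imprecise, and the members share the same arrays, so these ratios are a description. A larger SD with HOXB4 was not particular to the members. It was found in Etv2 (0.33 in controls and 1.30 with HOXB4), Fli1 (0.79 and 1.41), Cdh5 (1.17 and 1.92) and Hand1 (0.49 and 2.34). Other genes outside the members had the smaller SD with HOXB4, such as Shc1 (0.29 and 0.12) and Hbegf (0.41 and 0.29). Of the 8 members, 5 had their highest value in HOXB4 1 (Kdr, Flt1, Flt4, Vegfa and Vegfb) and 4 their lowest in HOXB4 3 (Flt4, Vegfa, Vegfb and Vegfc). Kdr and Flt1 were lowest in HOXB4 2.

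Genes with the pattern most like a member's were sought among those at least as bright as the median gene, by the root mean square difference of log2 values after each gene was centred on its mean over the 6 arrays. For Flt1 these were Zfp608, Gab2, Afap1l1, Tet2 and Syne1, at differences of 0.12 to 0.15. Gab2 encodes an adaptor protein of receptor tyrosine kinase signalling and Tet2 an enzyme that oxidises methylated cytosine. Zfp608, the closest, stood at 7.94, 9.36 and 8.22 in controls and at 10.51, 8.21 and 10.14 with HOXB4. For Pgf the closest was Aldh1a2, which encodes a retinoic acid synthesising enzyme of mesoderm, at 6.04, 5.71 and 5.90 in controls and 4.83, 5.45 and 4.95 with HOXB4, a difference of 0.06 from Pgf. It was followed by Fam185a, Fabp5, Mapk8ip2 and Pakap, at 0.09 to 0.11.

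For Kdr the closest genes were Lcorl, Afg1l, Tmem263, Bmt2 and Mon2, at differences of 0.048 to 0.054. For Vegfa they were Atf6, Mir6951, Nid1, Spns2 and Pros1, at 0.10 to 0.12. Atf6 encodes a sensor of unfolded protein stress, Nid1 a basement membrane protein and Spns2 a transporter of sphingosine 1-phosphate. These likenesses rest on 6 arrays and are a description of level over those arrays.

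**Figure D4:**
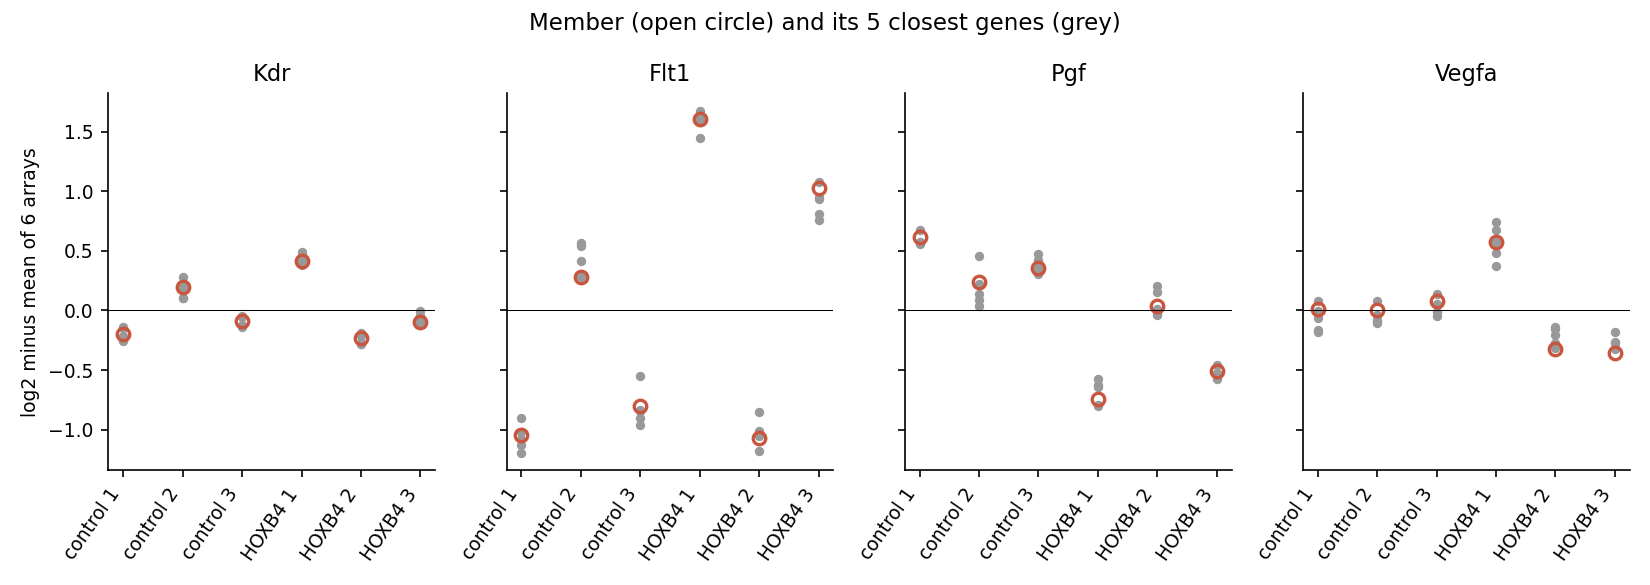
Log2 expression minus the mean of the 6 arrays for Kdr, Flt1, Pgf and Vegfa (open red circles) and for the 5 genes closest to each (grey points). The 4 members show different orders of the arrays, with Flt1 high in HOXB4 1 and 3 and Pgf low in the same 2 arrays.

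Genes upstream of the receptors were examined as a list of 18 transcription factors reported to act on Kdr or Flt1. No list gene in this or any other list of the pathway passed the test over all genes (smallest adjusted p = 0.605). Of the 18 factors, 16 lay higher and 2 lower with HOXB4, with a median difference of 0.43, against -0.04 over all genes. The median was 0.92 without HOXB4 2 and 0.08 without HOXB4 1. The smallest p belonged to a factor in the other direction, Etv2, which starts the endothelial and blood programme, at -1.53 (SE 0.60). Etv2 stood at 12.31, 11.75 and 12.33 in controls and at 9.58, 12.06 and 10.16 with HOXB4, so that HOXB4 2 lay among the controls, and the difference without that array was -2.26. Fli1, an ETS factor of endothelium and blood, stood at 10.95, 12.29 and 10.91 in controls and at 13.32, 10.91 and 13.39 with HOXB4, a difference of 1.15 (SE 0.72). Tal1 and Gata2, regulators of blood and endothelial precursors, differed by 0.71 (SE 0.45) and 1.07 (SE 0.72). Without HOXB4 2 the differences of Fli1, Tal1 and Gata2 were 1.97, 1.20 and 1.92, and their lowest values with any 1 array left out were 0.73, 0.42 and 0.63. HOXB4 2 was the lowest HOXB4 array for 16 of the 18 factors and control 2 the highest control for 15, the order also seen for Flt1 and the endothelial markers. The share of all genes with this order was not counted.

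Downstream of the receptors, 33 of 40 listed signalling genes were measured, 20 higher and 13 lower, with a median of 0.05, or 0.068 without HOXB4 2 and 0.013 without HOXB4 1. Pik3cb, a catalytic subunit of phosphoinositide 3-kinase, differed by 0.65 (SE 0.25) and Shc1, an adaptor, by 0.36 (SE 0.16). Akt2, a kinase downstream of phosphoinositide 3-kinase, differed by -0.35 (SE 0.14) without overlap between groups, and Sphk2, a sphingosine kinase, by -0.27 (SE 0.11). Among the 33 genes, 1 separated downward, against 10.2% of all genes, and 1 upward, against 3.24%. Of 18 genes induced by VEGF in endothelium, 12 lay higher and 6 lower, with a median of 0.08, or 0.12 without HOXB4 2 and -0.017 without HOXB4 1. The tip cell gene Esm1, below the median gene in every array, differed by -0.38 (SE 0.11) without overlap. Among these 18 genes, 1 separated downward, against 10.2% of all genes, and 1 upward, against 3.24%. Hbegf, which encodes a ligand of the EGF receptor, differed by -0.62 (SE 0.23), and the immediate-early genes Egr1 and Nr4a1 by 0.65 (SE 0.27) and 1.13 (SE 0.48). Nr4a1 stood at 10.02, 10.28 and 11.25 in controls and at 12.55, 10.88 and 11.52 with HOXB4, and its difference ranged from 0.68 to 1.52 as each array was left out. Egr1 and Nr4a1 also respond to cell dissociation, whose part was not tested.

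Partners that share the neuropilins gave 8 higher and 5 lower genes of 13, with a median of 0.16, or 0.14 without HOXB4 2 and 0.096 without control 1. Sema3c, a semaphorin of heart and vessel development, differed by 0.45 (SE 0.19), Gipc1, an adaptor that binds the neuropilin tail, by 0.95 (SE 0.55), Plxna1, a semaphorin receptor, by 0.30 (SE 0.17), and Sema3f, an Nrp2 ligand, by 0.42 (SE 0.26). Leaving out single arrays moved Gipc1 between 0.40 and 1.39 and Sema3f between 0.13 and 0.67. Of 11 genes for processing or holding VEGF proteins outside the cell, 7 lay higher and 4 lower, with a median of 0.24, or 0.29 without HOXB4 2 and 0.024 without HOXB4 1. Plau, the urokinase gene, stood at 4.62, 4.69 and 4.70 in controls and at 5.23, 4.92 and 5.06 with HOXB4, a difference of 0.40 (SE 0.11) without overlap, which was seen upward in 3.24% of all genes. Adamts3, whose protease matures VEGF-C, differed by -0.97 (SE 0.41), and stood at 7.69, 7.40 and 7.92 in controls and at 6.28, 7.70 and 6.11 with HOXB4. Its difference without HOXB4 2 was -1.47. Mmp9, a secreted gelatinase, differed by -0.86 (SE 0.51). Vegfd, the further VEGF gene of the array, differed by 0.28 (SE 0.17).

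Hypoxia is the classical inducer of Vegfa, so its factors and targets were read beside it. Of 10 hypoxia factor genes, 7 lay higher and 3 lower, with a median of 0.05, or 0.20 without HOXB4 2 and -0.020 without HOXB4 1. Epas1, which encodes the hypoxia inducible factor of endothelium, stood at 6.37, 6.73 and 6.61 in controls and at 6.24, 6.30 and 5.55 with HOXB4, a difference of -0.54 (SE 0.22) without overlap. Downward separation was seen in 1 of the 10 factor genes, against 10.2% of all genes. The prolyl hydroxylase genes Egln2 and Egln1 differed by 0.18 (SE 0.10) and 0.45 (SE 0.35), and Arnt2 by 0.25 (SE 0.20). Of 20 measured hypoxia targets, 15 lay lower and 5 higher, with a median of -0.13, or -0.18 without HOXB4 2 and -0.057 without control 3. Among the targets 3, Ldha, P4ha2 and, chosen after its values were seen, Higd1a, separated downward without overlap, against 10.2% of all genes. Ldha, lactate dehydrogenase, differed by -0.36 (SE 0.13), and the collagen prolyl hydroxylase genes P4ha2 and P4ha1 by -0.26 (SE 0.09) and -0.45 (SE 0.22), with Ankrd37 at -0.31 (SE 0.14).

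**Figure D5:**
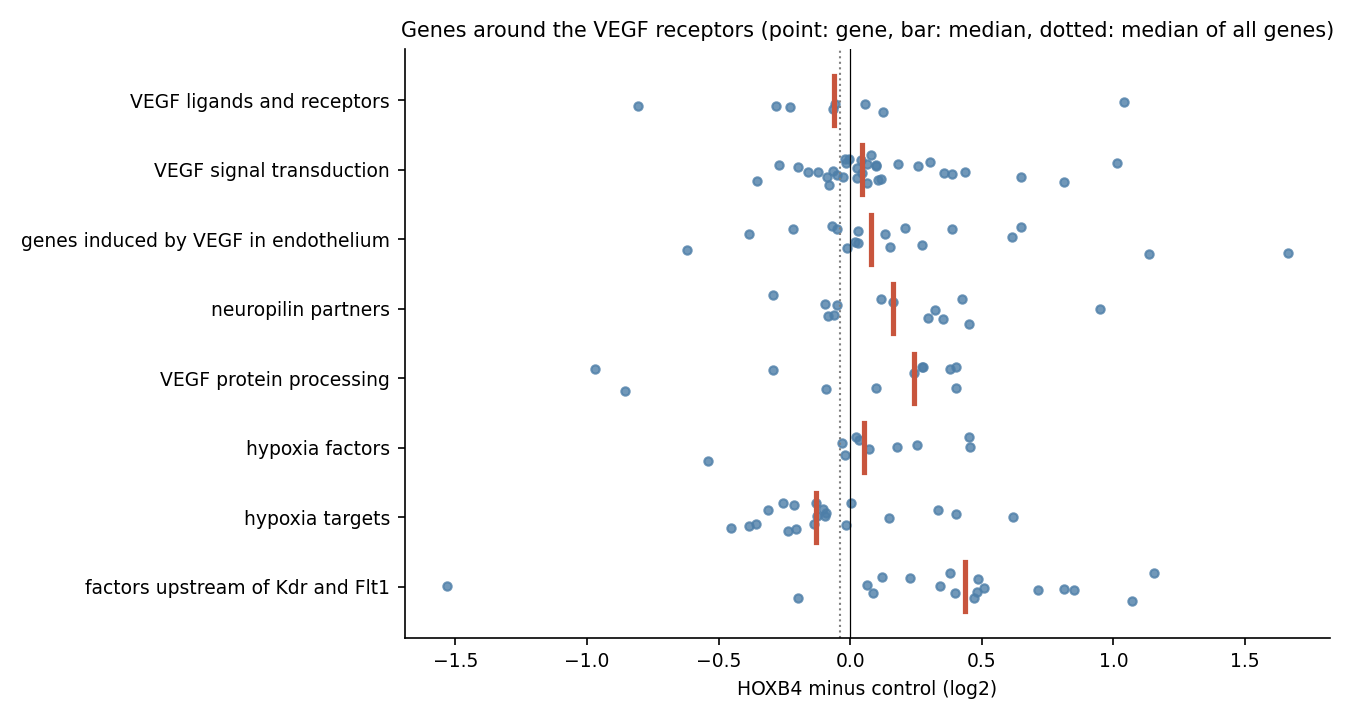
HOXB4 minus control on the log2 scale for each measured gene of 8 lists (points), with the median of each list (red bar) and of all genes (dotted line at -0.04). The factors upstream of Kdr and Flt1 have the highest median, 0.43, with Etv2 alone at -1.53, and the hypoxia targets the lowest, -0.13.

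Markers of the other cell types that the sort could hold are given for completeness. The mean of 8 paraxial and PDGFRA-lineage markers ranged from 6.38 to 6.48 in controls and from 5.73 to 6.45 with HOXB4. Of these 8, 6 lay lower and 2 higher with HOXB4, with a median difference of -0.22, or -0.29 without HOXB4 2. Among them 2 separated downward without overlap, against 10.2% of all genes, and 0 passed the adjusted threshold with all arrays. Without HOXB4 2, where 0.15% of all genes passed, Foxf1 alone of this list passed the adjusted threshold, at -3.04. That array was left out because of its values, so this call is a description. The mean ranged, in controls and with HOXB4, for 10 blood markers from 6.51 to 7.22 and from 6.48 to 7.18, and for 8 pluripotency markers from 6.61 to 7.52 and from 6.82 to 8.21. Of the pluripotency markers, 7 lay higher and 1 lower, with a median difference of 0.50, or 0.21 without HOXB4 2. Among them 2 separated upward without overlap, against 3.24% of all genes, and 0 passed the adjusted threshold. The 8 endoderm markers averaged 5.54 to 5.87 and 5.51 to 5.99, with Foxa2, Afp, Ttr and Apoa1 below the median gene in all arrays. The mean of the 6 neural markers was 5.80 to 6.02 in controls and 6.11 to 6.39 with HOXB4, without overlap. Single markers did not share this separation. Of these 6, 0 separated upward, against 3.24% of all genes, and 1 separated downward, against 10.2%. By sign, 4 lay higher and 2 lower, with a median difference of 0.06, or -0.016 without HOXB4 2. Tubb3, a neuronal tubulin gene, stood at 6.90, 7.73 and 8.33 in controls and at 10.20, 8.25 and 10.38 with HOXB4, a difference of 1.95 (SE 0.62), and Nes differed by 0.09. Below the median gene in all arrays were also Meox1 and Foxc2 of the paraxial list, Hba-x, Klf1 and Ptprc of the blood list, Esrrb of the pluripotency list and Pax6 of the neural list. The part of these cell types in the values of the VEGF genes was not tested.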

How the data were processed

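RNA of 6 sorted samples was hybridised to 1 array each, from 100 ng per the labels' protocols. The deposited values are log2 summaries made by the authors with Affymetrix Expression Console and RMA, per the submitters' processing notes. Versions and settings were not given in the sources used here. RMA gives all arrays nearly 1 distribution, which can hide a change shared by most genes.

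Symbols of the platform annotation were updated through a RefSeq table of assembly GRCm38.p6. Of 65956 features that were not controls, 31256 named 1 gene, 1494 several and 33206 none listed here. The contrast of HOXB4 against control used lmFit and eBayes of limma 3.58.1 (R 4.3.3), two-sided and without a replicate block, with Benjamini-Hochberg adjustment over 30700 genes. SE is the moderated standard error. Exact permutation tests used scipy 1.17.1, and tables and plots Python 3.11.15, numpy 2.4.6, pandas 2.3.3 and matplotlib 3.10.9.

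The members and lists were chosen with earlier results of these data known. The rule for named genes took all members, 4 genes per list with the smallest p, the 2 brightest of each marker list as candidates for mention, and 5 similar genes for Kdr and for the 3 other members of widest range. The fit was tested on simulated data for this contrast (30700 genes, noise independent between genes). It recovered 86% of 100 genes shifted by 1 on the log2 scale and 96% of 100 shifted by 2, and called 8 unchanged genes. The simulation used the same SD in both groups, whereas the SD was larger with HOXB4 for 8 of the 8 members. These shares therefore do not tell how often such a change of a member would be called in the real arrays. The number of arrays limits the precision.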

Additional observations from a re-analysis of the deposited data

How the results depend on the processing

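Of 246 comparisons of a result with an alternative, 237 kept their direction and side of the threshold or moved by less than the spread between arrays. Part of these could not turn out otherwise. The exact permutation test keeps a member's difference, and its smallest p is 0.1, so its agreement was fixed in advance. No member passed an adjusted p of 0.05 under any alternative run. The number of genes called over the array was 0 in each alternative apart from leaving out HOXB4 2, which gave 46, none of them a member. Leaving out 1 array turned Kdr (range -0.14 to 0.19, with -0.029 without control 1), Flt4 (-0.17 to 0.0021), Nrp2 (-0.062 to 0.28) and Vegfa (-0.37 to 0.10, with 0.08 without HOXB4 2), and Flt1 ranged from 0.50 to 1.84. Median differences then ranged from -0.24 to 0.049 for the members, 0.013 to 0.071 for signalling, -0.017 to 0.14 for VEGF-induced genes, 0.096 to 0.22 for neuropilin partners, 0.024 to 0.29 for VEGF processing, -0.020 to 0.20 for hypoxia factors, -0.20 to -0.057 for hypoxia targets and 0.077 to 0.92 for upstream factors. The cause was not tested. Pgf was lower in each alternative run (-1.03 to -0.64; adjusted p from 0.0956 to 0.925). With the replicate number as a block, 0 genes were called and Pgf had an adjusted p of 0.923. Deviations of same-numbered arrays from their group means correlated at -0.40, -0.59 and -0.35 over genes. Deviations within a group sum to 0, so these correlations depend on each other and cannot tell whether same-numbered arrays were paired. Cyclic loess, median centring and array weights turned the direction of no member. A filter on dim genes, all features, an intensity trend and the replicate block keep each member's difference unchanged. They can move only its p. The mean of a gene's features can alter only Nrp2, the 1 member with several features, and did not turn it.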
